A study of Mus musculus with 4 samples.

Results

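The enzymes that build triglyceride were followed in mouse brown adipocytes that expressed the long noncoding RNA Blnc1 or an empty vector. Members were the probe sets of the array whose annotation gave exactly 1 gene symbol and that symbol was one of 10 enzymes: Gpam and Gpat3, Agpat1, Agpat2, Agpat3 and Agpat4, Lpin1 and Lpin2, and Dgat1 and Dgat2. This rule found 14 probe sets for 9 of the 10 genes, out of 23599 probe sets tested and 10926 genes with 1 symbol. Agpat2 was not analysed here. The rule itself did not use any measured value, but the 10 enzymes were chosen with earlier results of these data known.

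Blnc1 (brown fat lncRNA 1) is a nuclear RNA known for its part in the brown fat gene programme. Wild-type mouse preadipocytes carrying either the empty vector or a vector for Blnc1 were differentiated for 6 days in both groups, and their total RNA was hybridised to Affymetrix arrays that read the 3' part of transcripts. There were 4 arrays, 2 vector and 2 Blnc1. The labels call the replicates biological but name no separate transductions, preadipocyte preparations or animals, so p-values reflect array-to-array spread alone, which may be technical. The source of the preadipocytes and the strength of the promoter in the vector are not given in the sources used here. Bulk RNA does not tell fewer cells that express a gene from less RNA per cell.

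Cells make triglyceride by adding fatty acids to glycerol 3-phosphate in steps. Glycerol-3-phosphate acyltransferases (GPATs) add the first fatty acid and make lysophosphatidate, and acylglycerolphosphate acyltransferases (AGPATs) add the next and make phosphatidate. Lipins remove the phosphate to give diacylglycerol, and diacylglycerol acyltransferases (DGATs) add the last fatty acid. Each step has several enzymes from different genes, and brown adipocytes use the pathway to fill the lipid droplets from which they later release fatty acids for heat production.

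Only Gpat3 changed past the threshold among the 14 probe sets: it was 1.71-fold lower in Blnc1 cells. No member rose past the threshold (limma; 3 probe sets were higher at an unadjusted p under 0.05), and the 8 other measured genes lay between log2 fold changes of -0.12 and 0.35 (Blnc1 minus vector). The call was an adjusted p under 0.05 in limma with Benjamini-Hochberg adjustment over all 23599 probe sets. On the same rule 0.928% of all probe sets passed in either direction, 0.305% lower and 0.623% higher, so 1 of 14 is a small count that rests on a single gene. The median over the 9 genes, each taken at its brightest probe set, was -0.058, beside 0.0073 over all 10926 genes. At that probe set 1 of the 9 genes passed, beside 1.23% of all genes. Both Blnc1 arrays lay outside the range of both vector arrays for 8 of the 9 genes, 3 higher and 5 lower, beside 53.2% of all genes.

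**Figure D1:**
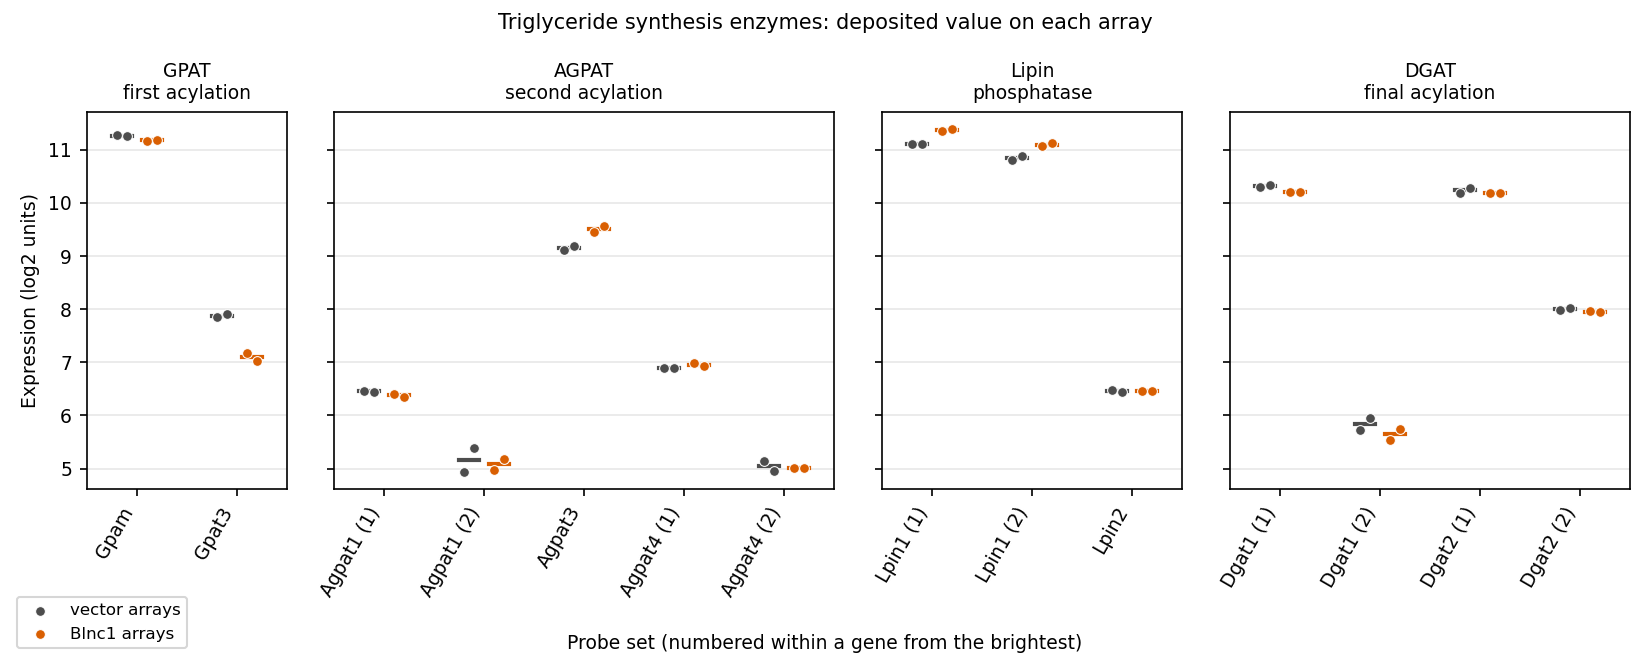
Deposited expression in log2 units (vertical axis) of each of the 14 probe sets on each array, in 4 panels by step; points are single arrays, short lines are group means, and probe sets are numbered within a gene from the brightest. The separation of the groups is widest for Gpat3, at 7.85 and 7.91 in vector and 7.18 and 7.03 in Blnc1 arrays.

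In the first step Gpat3 fell, and Gpam did not pass. Gpat3, which lies in the endoplasmic reticulum and is induced as adipocytes mature, read 7.85 and 7.91 log2 units on the vector arrays and 7.18 and 7.03 on the Blnc1 arrays. Both Blnc1 arrays were low and the groups did not overlap. The means were 7.88 ± 0.043 and 7.11 ± 0.11 (SD, n = 2 each), which put Blnc1 at -0.77 ± 0.088 (SE) relative to vector on the log2 scale (limma adjusted p = 0.0348). The 95% interval ran from -0.99 to -0.55. Gpat3 had the 14th largest fall among the 40 genes that were lower past the threshold. The call did not hold with the replicate number as a block (limma adjusted p = 0.0819). It was also lost with any 1 of the 4 arrays left out, at log2 fold changes of -0.85 to -0.70. The direction could have turned only under another scaling, which gave -0.78 (repeated quantile normalization) and -0.79 (median centring). Other variance priors, the filters and the block leave this fold change as it is, and groups that do not overlap keep their sign with 1 array left out.

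Gpam, the GPAT of the mitochondrial outer membrane, read 11.27 and 11.26 on the vector arrays and 11.17 and 11.18 on the Blnc1 arrays. The Blnc1 arrays were slightly lower and the groups did not overlap, yet the difference did not pass. Its log2 fold change was -0.092 ± 0.075 (SE; limma adjusted p = 0.565), with a 95% interval of -0.28 to 0.092. The intervals of the fold changes of Gpat3 and Gpam therefore did not meet.

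Sequence before a listed start of each enzyme is given because the 2 catalyse the same reaction and only the Gpat3 reading passed. RefSeq windows (GRCm38.p6) of the 250 bases before a listed start are written in lower case, with capitals for any GGGCGG (GC box), AGGTCA (the core site of nuclear receptors) or CACGTG (E-box) on either strand. The Gpat3 window is chr5:100845979-100846228 on the plus strand, and this window lies inside the gene's span. The Gpam window is chr19:55127239-55127488 on the minus strand, before the outer of the 2 listed starts. It lies outside the gene's span, so the 2 printed windows are not alike in place.
Gpat3: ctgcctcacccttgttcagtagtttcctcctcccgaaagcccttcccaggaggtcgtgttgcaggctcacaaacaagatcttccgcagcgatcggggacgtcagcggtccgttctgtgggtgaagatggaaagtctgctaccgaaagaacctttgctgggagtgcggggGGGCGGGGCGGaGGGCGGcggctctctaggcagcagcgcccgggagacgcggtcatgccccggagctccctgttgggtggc
Gpam: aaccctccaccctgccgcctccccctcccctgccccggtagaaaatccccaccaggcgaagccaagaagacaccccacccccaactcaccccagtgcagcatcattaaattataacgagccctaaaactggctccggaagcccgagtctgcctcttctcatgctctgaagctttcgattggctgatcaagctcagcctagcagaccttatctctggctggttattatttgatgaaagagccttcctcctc
The Gpat3 window was 64.0% G and C and held 3 GC boxes, 2 of them overlapping, and neither other motif. The outer Gpam window was 54.8% G and C and held none of the 3 motifs. The window before the inner Gpam start, inside the gene's span like that of Gpat3, is not printed. It was 66.0% G and C, above the Gpat3 window, and held 1 AGGTCA and 1 GC box. Across 32851 windows of the same length in the table, 32.7% held a GC box, 14.0% an AGGTCA and 6.02% a CACGTG. Windows were found for 8 members, 12 in all, of which 7 held a GC box, 3 (of Agpat1, Gpam and Lpin1) an AGGTCA and 1 (of Lpin2) a CACGTG. A match describes the letters and shows no binding.

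Among the enzymes of the second acylation, Agpat3 had the largest difference, upwards, without passing. Agpat3, which makes phosphatidate and favours polyunsaturated fatty acids, read 9.11 and 9.20 on the vector arrays and 9.45 and 9.56 on the Blnc1 arrays. Both Blnc1 arrays were higher. The log2 fold change was 0.35 ± 0.085 (SE; limma adjusted p = 0.118), 1.27-fold, with an unadjusted 95% interval of 0.14 to 0.56.

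Agpat1, a broadly expressed AGPAT of the endoplasmic reticulum, read 6.46 and 6.45 on the vector arrays and 6.40 and 6.36 on the Blnc1 arrays. These values barely separated, with Blnc1 at -0.078 ± 0.076 log2 units (SE) relative to vector (limma adjusted p = 0.638). Its dimmer probe set stood at -0.083 ± 0.16 (SE), and there the vector arrays alone were 4.94 and 5.39, so the groups overlapped. Agpat4, known best from brain, read 6.88 and 6.89 on the vector arrays and 6.99 and 6.92 on the Blnc1 arrays. The ID of that probe set marks it as one that can cross-hybridise. The fold change was 0.069 ± 0.077 (SE; limma adjusted p = 0.687), and the further probe set stood on the other side of 0, at -0.040 ± 0.095 (SE), so no direction can be given for Agpat4.

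Lipin 1 differed upwards on both of its probe sets. Lpin1 encodes a phosphatidate phosphatase that also acts in the nucleus as a coactivator with PPAR-alpha and PGC-1alpha, and its loss causes lipodystrophy in mice. The brighter probe set read 11.12 and 11.11 on the vector arrays and 11.35 and 11.40 on the Blnc1 arrays. The other read 10.80 and 10.88 on the vector arrays and 11.07 and 11.12 on the Blnc1 arrays. On each of them both Blnc1 arrays were higher, by 0.26 ± 0.076 and 0.25 ± 0.080 log2 units (SE), and neither passed (limma adjusted p = 0.157 and 0.181). Their 95% intervals ran from 0.075 to 0.45 and from 0.056 to 0.45. Probe sets of 1 gene share the RNA and are not separate evidence.

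Lpin2, a second phosphatidate phosphatase of the family, read 6.47 and 6.44 on the vector arrays and 6.45 and 6.46 on the Blnc1 arrays. The groups overlapped. The log2 fold change was 0.0036 ± 0.075 (SE; limma adjusted p = 0.985), the interval ran from -0.18 to 0.19, and the sign turned when arrays were scaled another way (-0.010 after repeated quantile normalization and -0.012 after median centring).

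The enzymes of the last step lay slightly below vector on all 4 probe sets. Dgat1, a member of the membrane-bound O-acyltransferase family, read 10.30 and 10.34 on the vector arrays and 10.21 on both Blnc1 arrays. The groups did not overlap, and the log2 fold change was -0.12 ± 0.076 (SE; limma adjusted p = 0.467). Its dimmer probe set stood at -0.20 ± 0.11 (SE), with overlapping groups. Dgat2, which is unrelated to Dgat1 in sequence and is closely tied to the droplet surface, read 10.19 and 10.28 on the vector arrays and 10.18 on both Blnc1 arrays, an equal deposited value (difference under 1e-09) that 10 probe sets in all showed on the Blnc1 pair. The fold changes of its 2 probe sets were -0.058 ± 0.079 and -0.050 ± 0.076 (SE; limma adjusted p = 0.748 and 0.777).

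**Figure D2:**
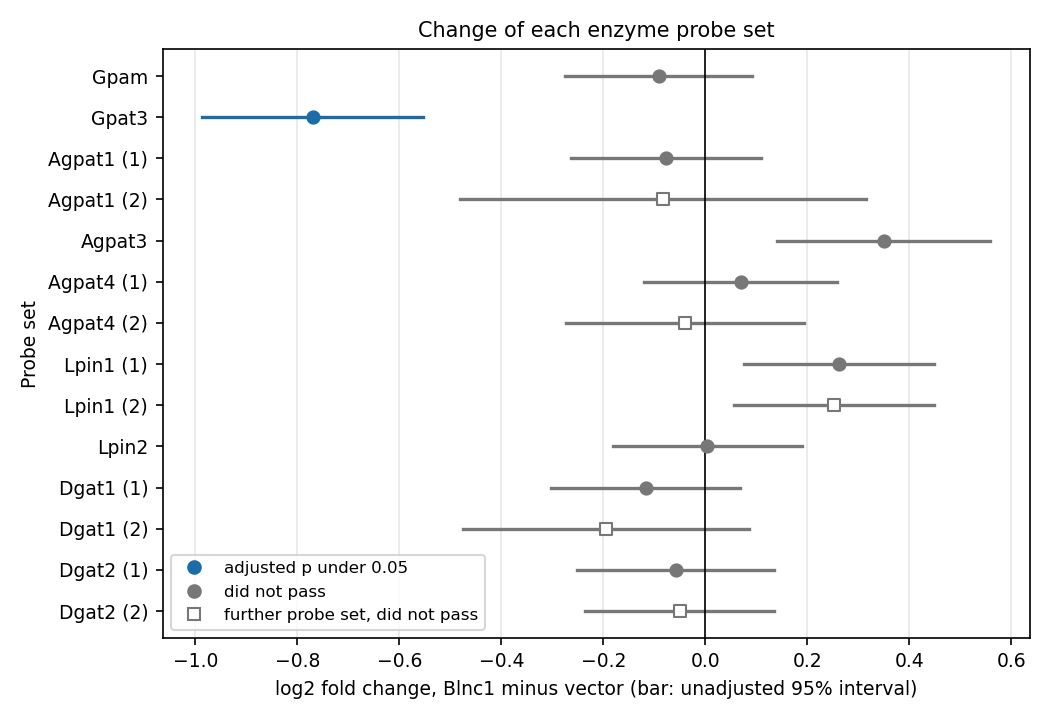
Log2 fold change, Blnc1 minus vector (horizontal axis), of the 14 probe sets (vertical axis), with bars for the unadjusted 95% interval; filled circles are the brightest probe set of a gene, open squares the further ones, and blue marks an adjusted p under 0.05. Gpat3 alone is blue, at -0.77, while Agpat3 and both Lpin1 probe sets lie to the right with bars that do not reach 0.

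The 5 genes with several probe sets showed the same sign on all of them in 4 cases, the exception being Agpat4. At an unadjusted p under 0.05 stood 4 of the 14 probe sets (Gpat3, Agpat3 and both of Lpin1), 28.6% beside 18.9% of all probe sets. These 4 also passed when the variance prior followed the level of the probe set, a setting under which 2174 probe sets passed in all; Agpat3 then had a limma adjusted p of 0.00478 and Lpin1 of 0.00124 on its brighter and 0.00382 on its other probe set. For the 8 genes that did not pass, the 95% intervals at the brightest probe set reached no lower than -0.30, a 1.23-fold fall, and no higher than 0.56, a 1.47-fold rise. With the dimmer probe sets included the lowest bound was -0.48, a 1.40-fold fall. In simulated arrays of this size the test recovered 27.0% of 1.5-fold and 88.8% of 2-fold changes. Changes of the size seen for Agpat3 or Lpin1 are smaller and were not simulated. In such arrays they would be missed more often. The simulated variances came from 1 prior at every level, so the rates may differ for bright probe sets such as those of Lpin1.

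The balance between enzymes of 1 step was then compared on each array as the difference of their log2 values, set to 0 at the vector mean. Gpat3 relative to Gpam stood at -0.60 and -0.76 on the Blnc1 arrays, against -0.034 and 0.034 on the vector arrays. Both Blnc1 arrays were far below both vector arrays, a change of -0.68. Agpat3 relative to Agpat1 stood at 0.35 and 0.51 on the Blnc1 arrays, and relative to Agpat4 at 0.19 and 0.37. Lpin1 relative to Lpin2 stood at 0.24 and 0.28. For Agpat4 relative to Agpat1 the change was 0.15, and for Dgat1 relative to Dgat2 it was -0.059. In all 6 pairs the groups did not overlap. They did not for 53.2% of single genes either, but no such share was computed over pairs of genes. The 3 AGPAT pairs share genes, and the pairs were chosen after seeing the data. Each exact permutation test (two-sided) gave p = 0.333, which is the smallest value that 2 arrays against 2 can give and stayed 0.333 after adjustment over the 6 pairs. Such a ratio shows unequal change of the 2 readings and does not say which of them held still.

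**Figure D3:**
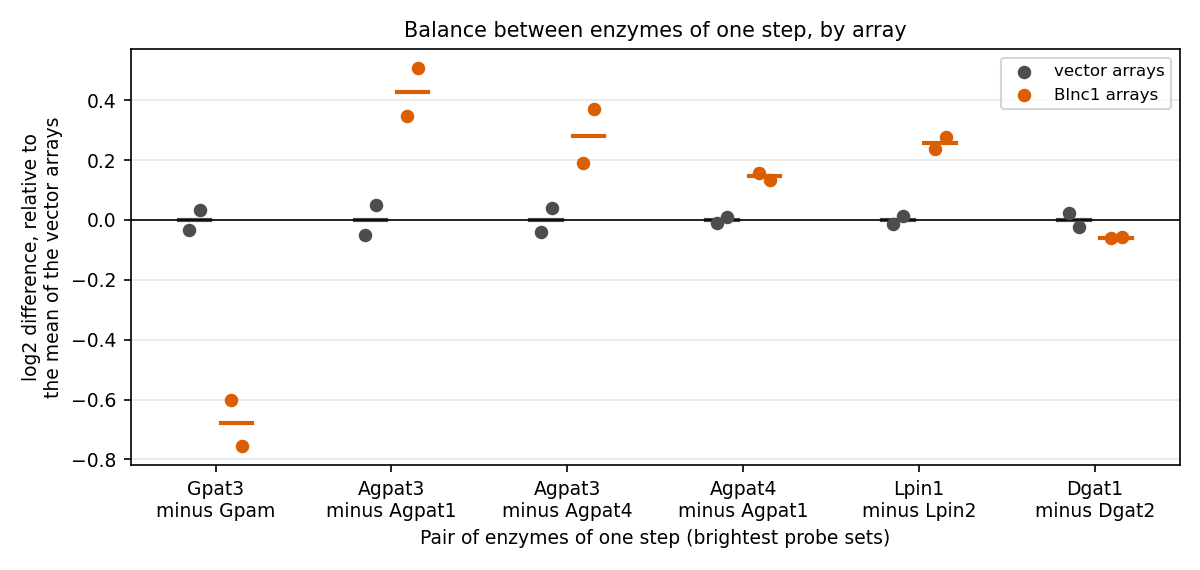
Log2 difference between 2 enzymes of the same step on each array, relative to the mean of the vector arrays (vertical axis), for the 6 pairs (horizontal axis); points are arrays and lines are group means. The Gpat3 minus Gpam difference falls to -0.60 and -0.76 in the Blnc1 arrays, and the Dgat1 minus Dgat2 difference moves by -0.059.

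Genes that feed, branch from or oppose the pathway were described from 7 lists with 64 measured genes and 112 probe sets, of which 2 probe sets (1.79%, beside 0.928% of all probe sets) passed (limma, adjusted p under 0.05), 1 higher and 1 lower. Plin3, a coat protein of nascent lipid droplets, rose from 7.35 and 7.29 to 7.95 and 8.02, a difference of 0.67 ± 0.079 log2 units (SE; limma adjusted p = 0.0375). A further probe set of the monoacylglycerol lipase Mgll fell from 9.42 and 9.41 to 8.80 and 8.75 (-0.64 ± 0.076 SE; limma adjusted p = 0.0375), while the brightest stood at -0.34 ± 0.077 (SE) and did not pass. Neither of these calls was kept when any 1 array was left out or with the replicate block.

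None of the measured genes that supply the substrates passed (limma, with 2 of 3 acyl-CoA synthetases and 1 of 7 glycerol 3-phosphate genes at an unadjusted p under 0.05). Of 5 listed acyl-CoA synthetases 3 were measured, and Acsl1 was not among them. Of 10 listed glycerol 3-phosphate genes 7 were measured, without Pck1 and Gk, so much of the supply was not examined. The 3 measured acyl-CoA synthetases, which activate fatty acids for esterification, were all higher on both Blnc1 arrays than on both vector arrays, as were 28.3% of all genes. Acsl4 stood at 0.39 ± 0.11, Acsl5 at 0.32 ± 0.084 and Acsl3 at 0.078 ± 0.077 (SE). Their median was 0.32, beside 0.0073 for all genes. The list for glycerol 3-phosphate supply also holds transport genes that do not make it, Slc25a1 among them. Its median over 7 genes was -0.030, with 3 positive and 4 negative. Of these 7 genes the aquaglyceroporins Aqp7 and Aqp3 stood at 0.26 ± 0.076 and 0.18 ± 0.088 (SE), and the mitochondrial citrate carrier Slc25a1 at -0.15 ± 0.083 (SE). Aqp3 was dim, at 4.72 and 4.58 on the vector arrays and 4.86 and 4.79 on the Blnc1 arrays. The other probe set of Aqp7 stood at 0.027 ± 0.082 (SE), with overlapping groups.

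Related acyltransferases and lipid phosphatases lay on both sides of 0, 5 positive and 3 negative of 8, with a median of 0.048. None was past the threshold (limma, with 3 at an unadjusted p under 0.05). Not all of them catalyse the steps described above: Mogat1 and Lpgat1 are in the list. Agpat5, a further AGPAT, stood at 0.33 ± 0.076 (SE; limma adjusted p = 0.108). The lipid phosphate phosphatases Plpp1 and Plpp3 stood at -0.31 ± 0.10 and -0.23 ± 0.077 (SE).

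In the branch that leads from phosphatidate and diacylglycerol to phospholipids 18 genes were measured, with a median of 0.045, 11 positive and 7 negative. None passed (limma; 3 at an unadjusted p under 0.05). The choline kinase Chkb came nearest, at 0.47 ± 0.082 (SE; limma adjusted p = 0.0667). Ptdss2, which makes phosphatidylserine, stood at 0.38 ± 0.090 and the cardiolipin synthase Crls1 at 0.31 ± 0.078 (SE).

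Droplet formation genes and regulators of lipin and DGAT had a median of 0.034 over 11 genes. Besides Plin3, the droplet coat gene Plin2 stood at 0.15 ± 0.080 and the lipid droplet acylhydrolase Pnpla3 at -0.22 ± 0.087 (SE). Triglyceride breakdown genes had a median of 0.012 over 9 genes, 5 positive and 4 negative, and ranged from -0.34 to 0.53. None passed at its brightest probe set (limma, with 4 of 9 at an unadjusted p under 0.05). Of their 16 probe sets 9 had an unadjusted p under 0.05 (limma), beside 18.9% of all probe sets. Of the 4 genes, 2 were higher: the lysosomal acid lipase Lipa at 0.53 ± 0.079 (SE, limma adjusted p = 0.0526) and the monoacylglycerol hydrolase Abhd6 at 0.27 ± 0.079 (SE). The other 2 were lower: Mgll, given above, and the triglyceride lipase Pnpla2 at -0.31 ± 0.10 (SE). Pnpla2 was dim, at 4.68 and 4.46 on the vector arrays and 4.23 and 4.29 on the Blnc1 arrays. Of 10 listed transcription factors of lipogenic genes 8 were measured, and Srebf1 was not among them. Of these 8 genes 6 were negative and none passed (limma, 2 at an unadjusted p under 0.05), with a median of -0.049. Cebpa stood at -0.23 ± 0.088, Nr1h3, the oxysterol receptor LXR-alpha, at -0.21 ± 0.083 and Pparg at 0.10 ± 0.075 (SE).

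**Figure D4:**
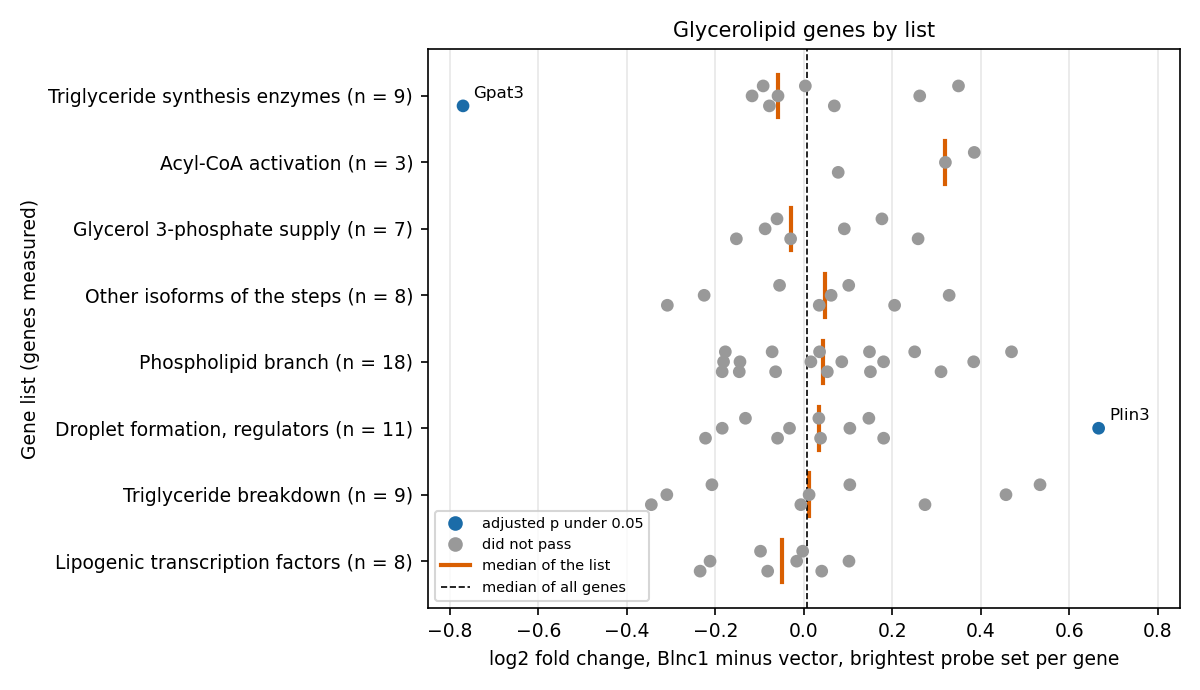
Log2 fold change, Blnc1 minus vector, of each measured gene at its brightest probe set (horizontal axis) in the triglyceride synthesis enzymes and the 7 related lists (vertical axis, with the number of genes measured); orange lines are list medians, the dashed line is the median of all genes, and blue marks an adjusted p under 0.05. Gpat3 at -0.77 and Plin3 at 0.67 are the outermost points, and list medians lie between -0.058 and 0.32.

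The genes whose values over the 4 arrays, each centred on its own mean, lay nearest to those of Gpat3 were Aspn, Xaf1, Ttk, Thbd and Abcd2, with Euclidean distances of 0.045, 0.064, 0.081, 0.084 and 0.095 log2 units among 10925 other genes. Their fall follows from how they were chosen.

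The labelled cell type was checked against its markers. The 6 measured adipocyte markers, Adipoq and Fabp4 among them, had mean log2 levels of 11.57 to 11.58 on the vector and 11.56 to 11.59 on the Blnc1 arrays, and none passed (limma; 0 at an unadjusted p under 0.05). Of 8 brown adipocyte markers at their brightest probe sets, 5 rose past the threshold, beside 1.23% of all genes called in either direction, and none fell. Their mean level was 7.27 to 7.31 in vector and 8.56 to 8.62 in Blnc1 arrays. The dimmer probe sets of Prdm16 stood at log2 fold changes of -0.0058 and -0.038, with overlapping groups. Macrophage (3 measured), endothelial (1) and skeletal muscle (2) markers stayed between 3.96 and 5.10 on every array, below the array medians of 5.98 to 6.04, and none passed (limma; 0 at an unadjusted p under 0.05). The 5 preadipocyte and fibroblast markers all had lower means in Blnc1 cells without passing, with a median of -0.34. Of them 3 had an unadjusted p under 0.05 (limma), beside 2266 of all 10926 genes. Their mean levels were 5.32 to 5.33 in vector and 5.00 to 5.03 in Blnc1 arrays, also below the array medians. Pdgfra, at -0.093 ± 0.15 (SE), was dim and its groups overlapped. All 18 hybridisation control probe sets were lower on the Blnc1 arrays (median -0.27). The Gapdh controls read 0.41 log2 units higher at the 3' than at the 5' end in vector arrays and 0.28 in Blnc1 arrays. For the Actb controls this difference was larger, at 1.51 in vector and 1.34 in Blnc1 arrays. These values moved with the same groups as Gpat3, and their part in its difference was not tested.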

How the data were processed

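The authors deposited 1 table of log2 expression values, 23634 probe sets by 4 arrays; RMA, affy and limma are named, per the submitters' processing notes, without versions, settings or order, and the log2 scale was read from the range of 2.70 to 13.29. RMA compresses fold changes of dim probe sets. After 35 control probe sets were left out, Blnc1 was compared with vector over 23599 probe sets (lmFit and eBayes of limma 3.58.1 under R 4.3.3, two-sided and without covariates, Benjamini-Hochberg adjustment, threshold 0.05; prior of 3.95 degrees of freedom and an SD of 0.092). Names came from GEO's platform annotation (16692 probe sets with 1 symbol, 372 with several, 6535 with none); all 9 measured members were found in the reference table by Entrez ID. A gene's brightest probe set over all arrays stood for it. Lists are described by counts and medians, without a set test. Named were all members, and of each list every gene past the threshold and the 3 genes with the smallest p. Pnpla2 and the 5 profiles nearest to the member with the smallest p were named too. The members and lists were chosen with earlier results of these data known. Pairs of enzymes were added after seeing the data. The test was also run on simulated data (30 runs, 200 changed probe sets each, with 5.33% of calls false). Their variances were drawn from the fitted prior with independent noise, and all changes were rises of at least 1.5-fold. That share therefore does not measure false calls on the real arrays. The alternatives were variance priors, scaling, filters, thresholds, averaging the probe sets of a gene, the replicate block and leaving out each array.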

Additional observations from a re-analysis of the deposited data

How the results depend on the processing

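Of 103 values of the member genes from the alternatives 91 kept direction and side of the threshold and 5 lost the call (all of Gpat3). A further 2 gained one (Agpat3 and Lpin1, with the intensity trend) and 5 changed sign. Many directions could not turn: the variance priors, the filter on the mean and the block leave a log2 fold change as it is. Leaving out 1 array cannot turn it where the groups do not overlap, as for all member genes but Lpin2. The sign changes were Lpin2, at -0.010 after repeated quantile normalization, -0.012 after median centring, and -0.014 (without vector replicate 2) to 0.021 (without vector replicate 1) with an array left out, -0.0020 without Blnc1 replicate 2 among them, and Agpat4, at -0.040 without probe sets whose IDs end in _x_at, _s_at or _a_at (shared with other genes or with several transcripts). That filter also left Agpat3 without a value, moved Aqp7 from 0.26 to 0.027 and turned Mgll to 0.011, since its brightest remaining probe set was another. The 1 member probe set past the threshold became 4 with an intensity trend in the variance prior, 0 at an adjusted p of 0.01, 0 with the replicate block (limma; 4 at an unadjusted p under 0.05) and 0 to 0 when each array was left out (limma; 2 to 4 at an unadjusted p under 0.05), where fewer arrays were fitted and the array left alone in its group was taken to vary like the other group. Over all probe sets the 219 became 2174 with the trend, 453 with a mean of at least 5, 958 and 3 at adjusted p of 0.10 and 0.01, 30 with the replicate block, and 3 to 38 with an array left out. The 2 in the related lists became 22 with the trend, 5 with a mean of at least 5, 9 and 0 at adjusted p of 0.10 and 0.01, 1 with the filter on ID endings, 0 with the block (limma; 32 at an unadjusted p under 0.05) and 0 to 0 with an array left out (22 to 28 unadjusted). The cause was not tested for the trend, the filters or the block. Same-numbered arrays deviated together with a correlation of 0.089, and with 2 numbers this does not show pairing. The other genes named from the lists, without Pnpla2, kept direction and side in 216 of 236 values. The number of arrays limits the precision, and RMA values carry no detection call for dim probe sets.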
